A study of Mus musculus with 6 samples.

Results

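Engrailed 1 and 2 (En1, En2), gastrulation brain homeobox 2 (Gbx2) and 6 paired-box factors (Pax2, Pax3, Pax5, Pax6, Pax7, Pax8) were followed in astrocytes of the mouse cerebellum and neocortex. These 9 genes were chosen by name, with earlier results of these data known. A probe set belonged to them if its current or former gene symbol in the platform annotation was one of the names. The rule found 17 probe sets of 8 genes, out of 45037 probe sets and 18193 named genes on the array, and no probe set with the single symbol Pax2. Total RNA of astrocytes was hybridised as biotin-labelled amplified RNA to 6 single-colour oligonucleotide arrays, 3 of cerebellar and 3 of neocortical astrocytes. The labels name the strain ICR for the neocortical arrays only. Strain and region cannot be told apart if the cerebellar cells came from another strain. The sources used here do not give genotype, age, treatment or the way the astrocytes were obtained, nor do they state whether the arrays of a group came from separate animals. The p values therefore measure the spread between these arrays, which may be partly technical.

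In the embryo, the boundary between midbrain and hindbrain, the isthmus, acts as an organiser that secretes FGF8 and WNT1 and patterns the midbrain on one side and the cerebellum on the other. Otx2 on the midbrain side and Gbx2 on the hindbrain side set its position. Pax2, Pax5, En1 and En2 are switched on around it and take part in forming midbrain and cerebellum. Pax3 and Pax7 mark dorsal neural tube, neural crest and muscle progenitors, and Pax6 acts in cortical radial glia, the eye and cerebellar granule cells. Pax8 is known from the thyroid and kidney and is also expressed at the isthmus, and Pax5 is a master regulator of B lymphocytes.

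For 7 of the 9 genes RefSeq promoter windows were at hand (build GRCm38.p6). The 250 bases before the start are shown for En1 and Gbx2, both higher in cerebellar astrocytes, and for Pax6, whose brighter probe sets did not pass the test described below. The En1 window is chr1:120602237-120602486 on the + strand, the Gbx2 window chr1:89931177-89931426 on the - strand and the Pax6 window, for the first of 2 listed starts, chr2:105668646-105668895 on the + strand. Each runs 5′ to 3′ towards the gene. Capitals mark ATTA, the short core that homeodomains of the Engrailed, Gbx and Pax3 type bind, read on both strands (so also as TAAT), and the E-box CACGTG.
En1: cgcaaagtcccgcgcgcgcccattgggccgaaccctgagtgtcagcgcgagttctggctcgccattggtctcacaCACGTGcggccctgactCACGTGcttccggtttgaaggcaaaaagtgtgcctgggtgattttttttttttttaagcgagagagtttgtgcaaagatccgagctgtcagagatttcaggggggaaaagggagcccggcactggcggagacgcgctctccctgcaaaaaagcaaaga
Gbx2: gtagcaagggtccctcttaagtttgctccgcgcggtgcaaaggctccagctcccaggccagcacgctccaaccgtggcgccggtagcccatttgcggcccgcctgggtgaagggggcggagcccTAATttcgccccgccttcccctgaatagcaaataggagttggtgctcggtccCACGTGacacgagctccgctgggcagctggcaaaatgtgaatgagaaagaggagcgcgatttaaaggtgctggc
Pax6: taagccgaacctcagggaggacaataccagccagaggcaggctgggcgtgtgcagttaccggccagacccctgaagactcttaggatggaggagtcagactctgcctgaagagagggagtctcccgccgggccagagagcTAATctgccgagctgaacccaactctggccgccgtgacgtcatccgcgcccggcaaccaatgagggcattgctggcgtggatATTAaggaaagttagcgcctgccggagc
CACGTG occurred at 175 and 158 bases before the En1 start and 74 bases before the Gbx2 start, and in 6.02% of 32851 promoter windows of the same length. It was added to the search after the windows had been read. ATTA occurred 126 bases before the Gbx2 start and 110 and 28 bases before the Pax6 start, not in the En1 window, and in 54.9% of all windows. None of the member windows held the full homeodomain core TAATTA (4.84% of all windows), the palindromic paired homeodomain dimer (0.463%) or TCACGC, a core bound by paired domains (5.56%), on either strand. ATTA lies inside TAATTA and the dimer, so those counts overlap. Such matches describe the letters and say nothing of binding.

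Both Engrailed genes, Gbx2 and Pax3 were higher in cerebellar astrocytes, while Pax6 was bright in both regions and did not pass the test. The test was limma's moderated fit on log2 signal over all 27022 probe sets kept by a filter on dim probes, with p values adjusted by Benjamini-Hochberg and called under 0.05. Of the 17 member probe sets, 9 were kept, from 6 genes, and 6 of the 9 were higher in cerebellar astrocytes, none lower. Over the whole array 4.88% of tested probe sets were higher in cerebellar astrocytes and 5.72% were higher in neocortical ones (1319 and 1545). With array medians made equal in place of quantile normalization that split was 819 and 2105, and the member count was still 6 higher and 0 lower. By brightest probe set, 4 of the 6 tested genes were higher, none lower, against 5.3% higher and 7.36% lower among 12616 genes. En1 and Pax3 were kept by the filter only through their cerebellar signal, so these counts describe the kept probe sets and not the 9 genes. En1 had a mean log2 signal of 7.42 against the filter's 7.40, and the brighter Pax5 probe set lay just outside it at 7.19. Values under 62.2 were raised to that floor before log2, which understates a fold against dim arrays. The brightest of 24 bacterial control probe sets read 269.2 in the deposited values, and normalized signal below it is called dim here. The 95th percentile of these controls was 116.2, so some dim signal, such as that of neocortical En2, lay above most control readings. Signal is in arbitrary units, and probe sets are not compared in level. In whole-cell RNA such as this, fewer cells expressing a gene and less RNA per cell cannot be told apart.

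**Figure D1:**
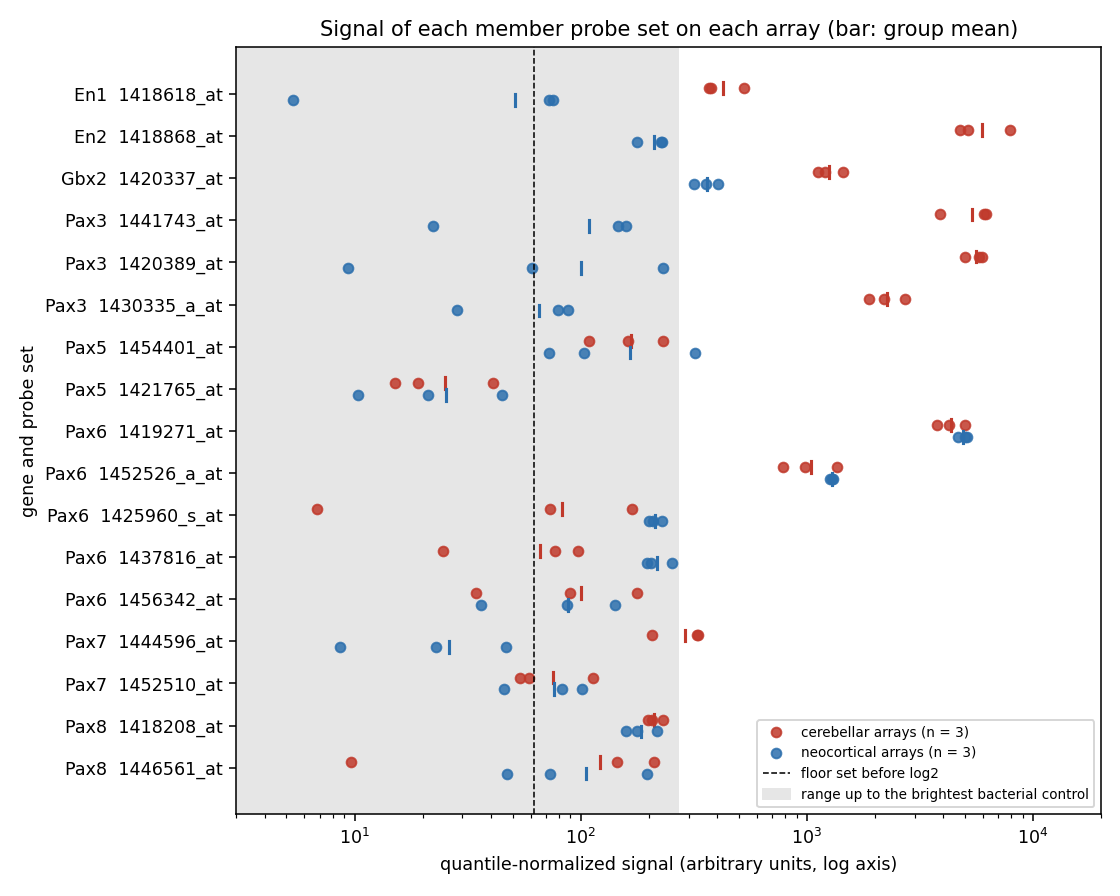
Quantile-normalized signal (horizontal log axis, arbitrary units) of the 17 member probe sets on 3 cerebellar (red) and 3 neocortical (blue) arrays, with a bar at each group mean. All 3 cerebellar arrays lay above all 3 neocortical ones for En1, En2, Gbx2, Pax3 (3 probe sets) and 1 of 2 Pax7 probe sets. They lay below all 3 neocortical ones for 2 dim Pax6 probe sets. Of all tested probe sets, 16.5% lay above and 15.7% below without overlap. The dashed line marks the floor of 62.2.

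En2, the Engrailed paralogue best known from the cerebellum, read 7919.9, 5164 and 4769 on the cerebellar arrays and 228, 227 and 178 on the neocortical arrays 1 to 3. The cerebellar arrays were far above the neocortical ones, which all lay in the dim range, and the groups did not overlap. The fitted difference was 27.7-fold (95% interval 19.6 to 39.0; log2 difference 4.79 ± 0.22, SE; limma adjusted p = 1.6e-05). It ranked eighth of the 27022 tested probe sets by size.

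En1, the paralogue needed earlier for midbrain and cerebellum, read 526, 377 and 369 on cerebellar and 5.35, 72.6 and 75.8 on neocortical arrays. Cerebellar signal was only moderately above the dim range, neocortical signal was close to or below the floor, and the groups did not overlap. The fitted difference was 5.98-fold (95% interval 3.42 to 10.5; log2 difference 2.58 ± 0.36, SE; adjusted p = 0.00264), with 1 neocortical array at the floor. With the floor at the 40th percentile the log2 difference was 1.15 (adjusted p = 0.0134). Both Engrailed genes and Gbx2 read highest on cerebellar array 1, as did every Pax3, Pax5 and Pax7 probe set and the bright Pax6 ones.

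Gbx2, the hindbrain-side factor of the isthmus, was the called member with the smallest difference and with measurable signal in both regions. It read 1443, 1200.1 and 1123 on cerebellar and 406, 359.9 and 315 on neocortical arrays, and no array was in the dim range. The difference was 3.48-fold (95% interval 2.56 to 4.73; log2 difference 1.80 ± 0.20, SE; adjusted p = 0.000823), and the groups did not overlap.

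Pax3, the dorsal neural tube factor, was measured by 3 probe sets, and all 3 gave the same picture. The brightest, 1441743_at, read 6187, 3887 and 6042 on cerebellar and 159, 22.2 and 146 on neocortical arrays. Probe set 1420389_at read 5978, 5025 and 5759 against 9.32, 60.6 and 232, and 1430335_a_at read 2719.9, 1875 and 2201 against 79.4, 87.8 and 28.5. Every neocortical value was dim, the cerebellar values were not, and no probe set overlapped between groups. The log2 differences were 5.54 ± 0.36, 5.85 ± 0.45 and 4.89 ± 0.25 (SE), with adjusted p values of 6.54e-05, 0.000157 and 2.27e-05. They ranked sixth, second and seventh by size, and the brightest corresponded to 46.5-fold (95% interval 26.5 to 81.7). These folds rest on neocortical arrays at or near the floor, 1, 2 and 1 of which lay at it. With the floor at the 40th percentile the log2 differences were 4.81, 4.79 and 3.57. Without neocortical array 3, the highest of its group for 1420389_at, the log2 difference of that probe set was 6.49. The lowest cerebellar reading of each of the 3 probe sets was on array 2.

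Pax7, the close paralogue of Pax3, was below the filter and was not tested in the main fit. Probe set 1444596_at read 331, 207 and 326 on cerebellar and 46.8, 8.62 and 23.0 on neocortical arrays. The groups did not overlap, as for 16.5% of tested probe sets with cerebellar signal above, every neocortical array lay below the floor, and cerebellar array 2 was in the dim range. With no filter the difference was at least 4.53-fold against the floor (log2 difference 2.18 ± 0.22, SE; limma adjusted p = 0.022), in a fit that called 1.28% of 45037 probe sets higher in cerebellar astrocytes. With the floor at the 40th percentile it was 0.58 on the log2 scale and did not pass (adjusted p = 0.178). The other Pax7 probe set, 1452510_at, read 53.8 to 113 on cerebellar and 45.7 to 101 on neocortical arrays, all dim and overlapping, so the 2 probe sets of this gene did not give the same result.

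**Figure D2:**
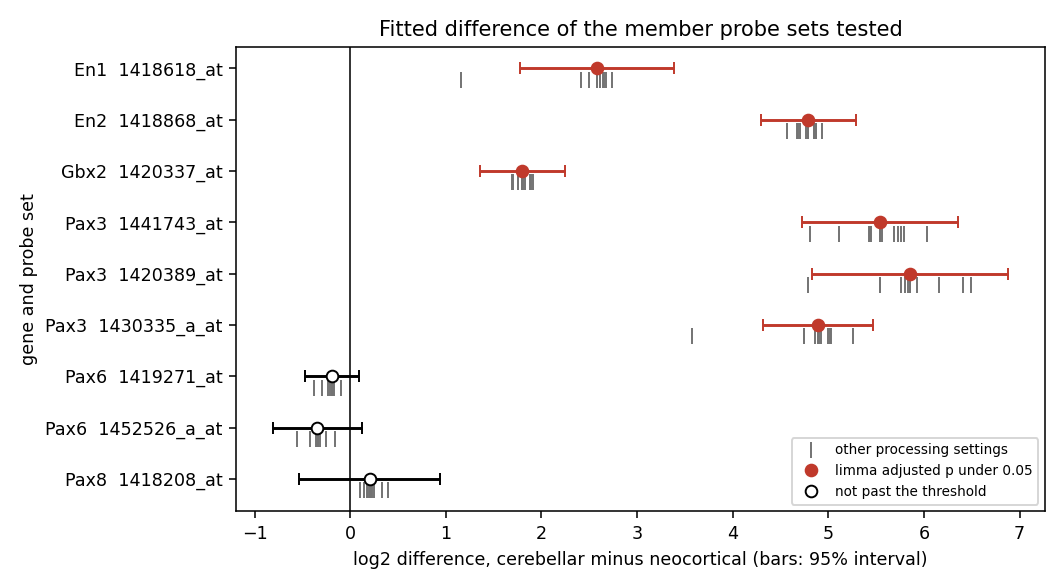
Log2 difference between cerebellar and neocortical astrocytes (horizontal axis) with its 95% interval for the 9 member probe sets tested. Filled red points passed the threshold, open points did not, and grey ticks show the same difference under other processing settings, none of which crossed 0.

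Pax6, the regulator of cortical radial glia and of granule cell precursors, was bright in astrocytes of both regions. Its brightest probe set, 1419271_at, read 5002, 4253 and 3772 on cerebellar and 4649.8, 5099 and 5027 on neocortical arrays. The groups overlapped, and the log2 difference of -0.19 had a 95% interval of -0.47 to 0.09 (adjusted p = 0.368), so a difference of 2-fold lies outside the interval. Probe set 1452526_a_at gave -0.34, with an interval of -0.81 to 0.12 (adjusted p = 0.332). On both probe sets cerebellar array 1 read highest and array 3 lowest of the cerebellar arrays, with 1363 and 785 on the second, while the neocortical arrays lay between 1266 and 1303.

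The 3 remaining Pax6 probe sets were dim on every array and below the filter. Of these, 1437816_at read 24.6, 97.8 and 76.7 on cerebellar and 255, 204 and 196 on neocortical arrays, and 1425960_s_at read 168, 73.4 and 6.8 against 209.6, 229 and 200.4. Both lay lower in cerebellar astrocytes with no overlap, as did 15.7% of tested probe sets. With no filter the log2 differences were -1.48 ± 0.22 and -1.22 ± 0.42 (SE), and the first passed (adjusted p = 0.0456) while the second did not (adjusted p = 0.226). The third, 1456342_at, overlapped, at 34.5 to 177 and 36.1 to 142. The 2 bright and these 3 dim probe sets of Pax6 thus did not read alike.

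Pax8 and Pax5, the remaining isthmic Pax genes, had no probe set past the threshold, and Pax8 was dim on every array. Pax8 probe set 1418208_at read 207, 230.1 and 198 on cerebellar and 159, 218 and 177 on neocortical arrays, and its log2 difference was 0.20 with an interval of -0.53 to 0.94 (adjusted p = 0.741). The second Pax8 probe set ranged from 9.62 to 212 and from 47.5 to 197. Pax5 ranged from 109 to 230.4 on cerebellar and from 72.5 to 321 on neocortical arrays with its brighter probe set, and all 6 arrays lay below the floor with the other. A single neocortical array, at 321, was above the dim range, and the groups overlapped. The Pax8 interval does not reach a 2-fold difference. Pax5 was not tested in the main fit, and with no filter its brighter probe set had a log2 difference of 0.25 ± 0.65 (SE; limma adjusted p = 0.91).

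**Figure D3:**
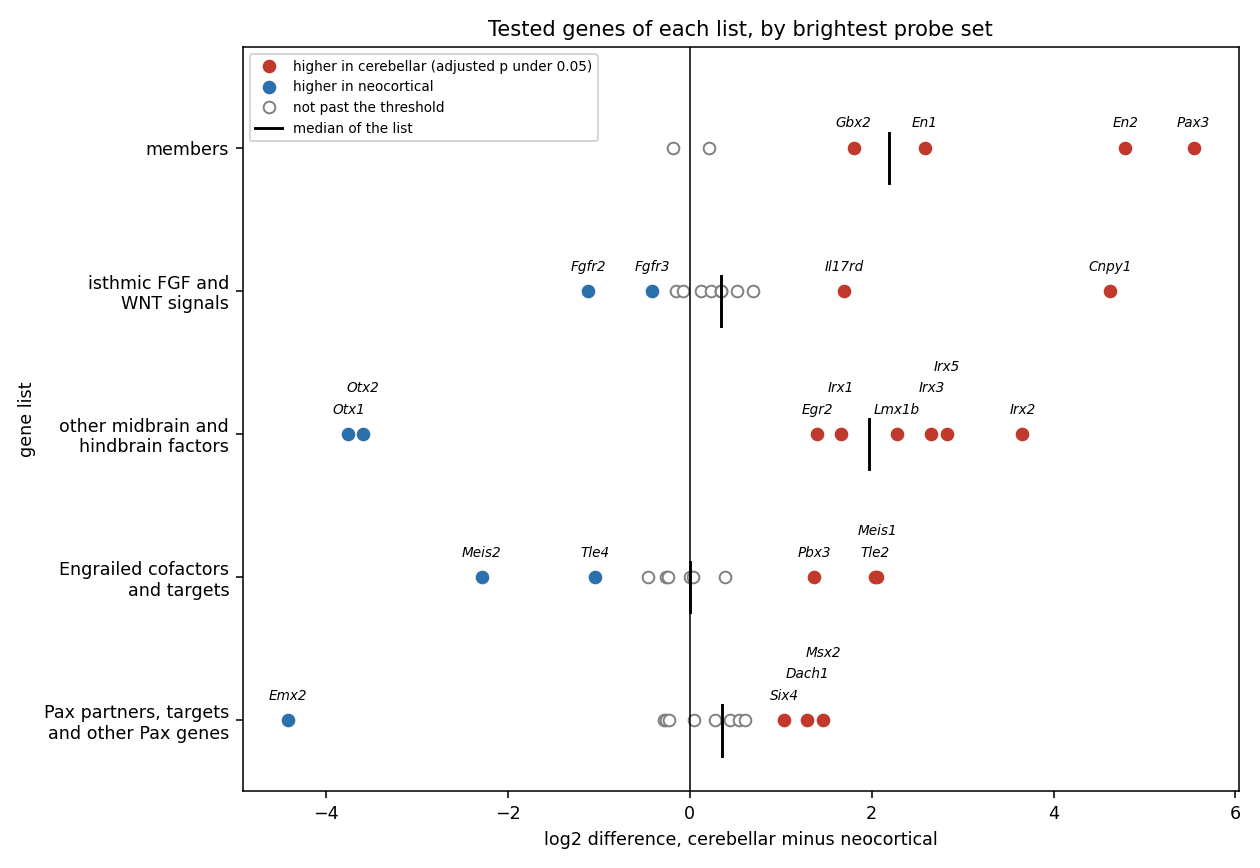
Log2 difference (horizontal axis, cerebellar minus neocortical) of each tested gene of the members and of 4 related lists, by brightest probe set, with a black bar at each list's median. Both Otx genes lay to the left, at -3.76 and -3.60, and the 4 Irx genes, Lmx1b and Egr2 to the right.

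Among the signals that surround these factors at the isthmus, genes passed the test in both directions. Of 18 measured FGF and WNT genes, 13 were tested, 2 were higher in cerebellar astrocytes, 2 were lower and 9 did not pass, with a median log2 difference of 0.34 against -0.015 over all genes. Over all tested genes, 5.3% were higher and 7.36% lower. Some of the 9 had wide intervals, such as -1.60 to 1.30 for Sp5, and Fgfr1 was among the 5 of 13 with an unadjusted p under 0.05 (log2 difference 0.34, adjusted p = 0.0982). These 2 genes were picked out with their values known. Cnpy1 (canopy FGF signalling regulator 1) was 24.6-fold higher, at 1885 ± 204 against 61.6 ± 41.2 (SD, n = 3 each), and all 3 of its probe sets passed. It reached the filter only through its cerebellar signal. Il17rd, the FGF antagonist also called Sef, was higher by 1.70 ± 0.20 on the log2 scale (SE; adjusted p = 0.00136), with 1 of 2 probe sets past the threshold. The receptor genes Fgfr2 and Fgfr3 were lower, with log2 differences of -1.12 ± 0.11 and -0.41 ± 0.10 (SE; adjusted p = 0.000411 and 0.0329), in both tested probe sets of Fgfr2 and 1 of 2 of Fgfr3. Fgfr3 did not pass without cerebellar array 2 or 3 or without any 1 of the neocortical arrays (adjusted p = 0.0572 to 0.135). The ligand genes Fgf8, Fgf17, Fgf15 and Wnt1 and the FGF target Etv4 were below the filter.

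Of 15 other measured transcription factors of the midbrain and hindbrain, 8 were tested, and 6 of these were higher and 2 lower in cerebellar astrocytes, where 12.7% of all tested genes passed in either direction. Otx1, Otx2 and Lmx1b reached the filter only through the region where they were bright, so the count describes the genes kept. The 7 others, among them Gbx1, Lmx1a, Hoxa2 and Hoxb1, were below it. Otx1 and Otx2, the forebrain and midbrain factors that oppose Gbx2, were lower, with log2 differences of -3.76 ± 0.38 and -3.60 ± 0.43 (SE; adjusted p = 0.000595 and 0.00139), with dim cerebellar means of 101 and 150.5. Irx2 and Irx5, of the iroquois homeobox family, were higher by 3.66 ± 0.19 and 2.83 ± 0.22 (adjusted p = 2.27e-05 and 0.000157). Irx1, Irx3, Lmx1b and Egr2, named after their values were seen, made up the rest of those higher, with log2 differences of 1.40 to 2.65. The choroid plexus also expresses Otx2, and the summed signal of choroid plexus and ependyma markers was lower on every cerebellar array, 7768 to 13147 against 14549 to 15570.3. The ependymal gene Foxj1, at 7496 against 8644 and not past the threshold, made up most of that sum. In that list 1 of 5 tested genes, Folr1, was lower (log2 difference -2.07, adjusted p = 0.000208) and Kl was at the floor on all arrays. The part of choroid plexus cells in the Otx2 difference was not tested.

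Engrailed proteins act with Pbx and Meis cofactors and with Groucho corepressors of the Tle family, and genes of both kinds passed the test in both directions. Of 11 tested cofactors and targets, 3 were higher in cerebellar astrocytes, 2 were lower and 6 did not pass, the last including both ephrin genes listed as targets, Efna2 and Efna5. The shares over all tested genes were 5.3% higher and 7.36% lower. Meis1 and Meis2 moved in opposite directions, 4990 ± 926 against 1184 ± 33.4 for Meis1 and 1754 ± 330.5 against 8496 ± 741 for Meis2 (SD, n = 3 each). Their log2 differences were 2.06 ± 0.15 and -2.29 ± 0.15 (SE; adjusted p = 0.000134 and 6.47e-05). Tle2 and Pbx3 were higher, by 2.04 ± 0.31 and 1.37 ± 0.16 (adjusted p = 0.0045 and 0.00135), while Tle4, a name added once its value was known, was lower (log2 difference -1.05, adjusted p = 0.00408). Of the tested probe sets, 2 of 3 passed for Meis1, 4 of 4 for Meis2 and 2 of 3 for Tle4.

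Of 20 measured partners and targets of Pax factors and other Pax genes, 12 were tested, 3 were higher in cerebellar astrocytes, 1 was lower and 8 did not pass. Among all tested genes, 5.3% were higher and 7.36% lower. Msx2, a homeobox gene of the dorsal neural tube, and Six4, a homeobox partner of Eya proteins, were higher by 1.47 ± 0.27 and 1.04 ± 0.18 on the log2 scale (SE; adjusted p = 0.011 and 0.00849). For Six4 2 of 3 tested probe sets passed. Dach1 was higher by 1.29 ± 0.33 (adjusted p = 0.0381) but did not pass with the replicate number as a block (adjusted p = 0.0584) or without any 1 of the 6 arrays (0.0687 to 0.114). Emx2, a cortical factor, was lower, with a log2 difference of -4.42 ± 0.36 (adjusted p = 0.000208) with 1 cerebellar array at the floor. Dach1 and Emx2 reached the filter only through the region where they were bright. The other Pax genes, Pax1, Pax4 and Pax9, were below the filter.

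The genes whose profiles over the 6 arrays lay closest to those of the called members were named by the smallest root mean square difference of log2 signal, after each profile was centred on its mean. With 2 groups this measure mostly reflects the size of the regional difference. For En2 they were Cnpy1 (0.26), the islet amyloid gene Iapp (0.39), Irx2 (0.61), Pax3 (0.67) and Sned1 (0.80). For Pax3 they were Cnpy1 (0.57), En2 (0.67), the muscle myosin gene Myh8 (0.70), Iapp (0.98) and Irx2 (1.01). Myh8 lay at the floor on all neocortical arrays, and its cerebellar signal was at least 99.8-fold higher. Myh8 and Iapp reached the filter only through their cerebellar signal. For En1 they were Igfbp4 (0.12), Irx3 (0.16), Phlda1 (0.16), Greb1l (0.20) and Lmx1b (0.21), and for Gbx2 they were Arhgap20 (0.11), Nav3 (0.12), Aebp1 (0.15), Arc (0.15) and Il17rd (0.15).

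Cnpy1, the gene closest to En2 in profile, is also its next protein-coding neighbour in GRCm38.p6. Its probe set 1437996_s_at read 2120.4, 1772 and 1762 on cerebellar and 93.7, 15.1 and 76.1 on neocortical arrays, with no overlap (log2 difference 4.62 ± 0.25, SE; adjusted p = 2.78e-05). Insig1 and Rbm33, the nearest other tested neighbours of En2, had log2 differences of -0.10 and -0.15 and did not pass. This look at neighbours was added after the profiles had been seen, and it took the 2 protein-coding genes on each side of all 9 members. Of those 36 genes, 23 were tested, 2 were higher in cerebellar astrocytes, 5 were lower and 16 did not pass, at -0.30 to 0.28, beside 5.3% higher and 7.36% lower over all genes. The genes higher were Cnpy1 and, next to Pax5, Zcchc7 (log2 difference 0.58, adjusted p = 0.0299). Those lower were Grhpr beside Pax5 (-0.73, adjusted p = 0.00552), Slf2 and Sema4g beside Pax2 (-0.84 and -0.96, adjusted p = 0.00509 and 0.0252), and Epha4 and Slc4a3 beside Pax3 (-0.81 and -0.56, adjusted p = 0.0472 and 0.0354). Epha4 did not pass without cerebellar array 2 or 3 or any 1 neocortical array (adjusted p = 0.085 to 0.159), and Slc4a3 without cerebellar array 1 or 2 or any 1 neocortical array (0.0669 to 0.124). Zcchc7 did not pass without cerebellar array 2 or 3 or any 1 neocortical array (0.0644 to 0.118), nor Sema4g without any 1 neocortical array (0.0828 to 0.0968).

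**Figure D4:**
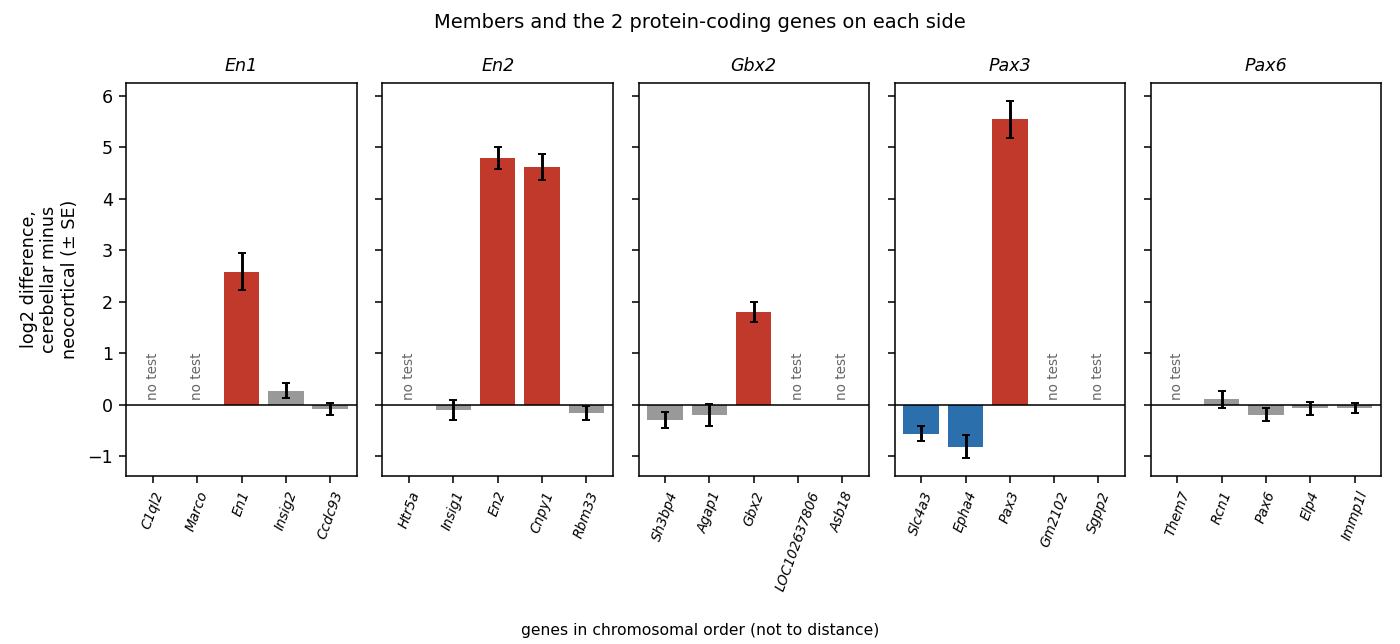
Log2 difference (vertical axis, cerebellar minus neocortical, ± SE) of 5 members and the 2 protein-coding genes on each side, in chromosomal order. Red and blue bars passed the threshold and grey bars did not. Of the 3 tested neighbours of En2, Cnpy1 was higher and the other two did not pass. The tested neighbours of En1, Gbx2 and Pax6 did not pass.

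Marker lists describe the cells that were on the arrays. Beside the counts of each list stand 5.3% higher and 7.36% lower in cerebellar astrocytes over all tested genes. The astrocyte markers were bright in both regions, with 1 of 10 higher (Aqp4), 3 lower (Slc1a3, Glul and Aldoc) and 6 not past the threshold. At an unadjusted p under 0.05 the count was 7 of 10, with Gfap, Sox9 and Aldh1l1 added. Their log2 differences were -1.11, -0.23 and 0.51 (limma adjusted p = 0.0649, 0.163 and 0.0665). For Gfap 1 of 3 probe sets was lower. Of the 6 Slc1a3 probe sets 1 was lower and the others did not pass. Aqp4 did not pass without cerebellar array 2 or 3 or neocortical array 1 or 3 (adjusted p = 0.102 to 0.137), and Aldoc without cerebellar array 3 or any 1 neocortical array (0.0586 to 0.0722). Summed granule neuron markers were higher on every cerebellar array, 2519 to 3400 against 1830 to 2093 (granule cells express Pax6 and En2), yet 0 of 4 tested genes passed in limma, with 2 (Zic2 and Reln) at an unadjusted p under 0.05. Zic2 and Reln read 1254 and 629.8 against 609 and 434. The granule markers Atoh1, Barhl1, Neurod1, Cbln3 and Gabra6 were below the filter. The part of granule cells in the member differences was not tested. Of 9 melanocyte and neural crest markers 4 were tested and 0 passed, and of 10 skeletal muscle markers 2 were tested and 0 passed in limma. Myh8, a muscle myosin gene that was not on the muscle list, was higher in cerebellar astrocytes, with the largest difference of all tested probe sets (log2 difference 6.64, adjusted p = 6.49e-06). The part of muscle or neural crest cells in the Pax3 difference was not tested. At an unadjusted p under 0.05 the counts were 0 and 1 (Des). Myod1, Myf5, Myf6 and Myog were below the filter, and Des, at 396 against 94.8, did not pass (adjusted p = 0.06). Purkinje, interneuron, neuron, oligodendrocyte, fibroblast, microglia and B lymphocyte sums overlapped between regions. Of the tested genes, 1 of 3 Purkinje (Car8), 1 of 3 interneuron (Gad1) and 1 of 5 neuron markers (Syt1) were lower in cerebellar astrocytes. Of 7 oligodendrocyte markers Olig1 and Olig2 were lower and Mbp was higher, with 3 of 5 tested Mbp probe sets past the threshold. At an unadjusted p under 0.05 the Purkinje, interneuron and neuron counts were 1, 2 and 3. Pvalb and Nefm, higher, and Syp, lower, were added (log2 differences 0.78, 0.75 and -1.09, limma adjusted p = 0.0665, 0.109 and 0.0698). The Purkinje marker Foxp2 lay higher, at 1.35, and did not pass (adjusted p = 0.201). Car8, Gad1 and Mbp reached the filter only through the region where they were bright, so these counts describe the genes kept. Gad1 did not pass without cerebellar array 2 or 3 or neocortical array 2 or 3 (adjusted p = 0.0535 to 0.0769), nor Syt1 without any 1 neocortical array (0.0742 to 0.0904). None of 10 fibroblast and 7 microglia markers passed in limma, with 1 and 0 at an unadjusted p under 0.05, and no B lymphocyte marker was tested. The fibroblast and meninges list had a median log2 difference of 0.62, beside -0.015 over all tested genes. Its sum ran from 62666 to 241754 on cerebellar and from 64315 to 104893 on neocortical arrays. The microglia sum ran from 4612 to 24552 and from 8004 to 22485. Some intervals were wide, such as -0.68 to 2.49 for Col3a1 and -1.32 to 1.32 for Csf1r. The part of meningeal cells in the member differences was not tested. For Gapdh, the 3′ control probe set divided by the 5′ one, which rises as RNA is degraded, gave 0.913 to 1.07 on cerebellar and 0.865 to 0.883 on neocortical arrays without overlap. The same ratio for actin overlapped, at 1.42 to 1.62 and 1.35 to 1.44. The part of RNA quality in the member differences was not tested.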

How the data were processed

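The authors deposited linear signal intensities for each probe set on each array, and the method behind it is not given in the sources used here. After trimming 2% at each end the mean intensity was 1500.01 on every array, while medians ran from 284.7 to 361.2. Control probe sets were left out and the other 45037 quantile normalized. The 20th percentile (62.2) served as a floor before log2, and the 27022 probe sets whose mean reached the 40th percentile entered the fit with limma 3.58.1 in R 4.3.3 (variance trend, two-sided, all 6 arrays, no block). With 3 arrays a group their number limits the precision. Symbols came from the platform annotation and, by Entrez ID, from the GRCm38.p6 gene table (34741 of 34945 probe sets with 1 symbol). The rule for naming took all members, up to 4 passing genes of each list (the 2 brightest where under 2 passed), and the 5 nearest profiles of each called member. Some markers under this rule are not printed, and some genes outside it are named with their values known. Members and lists were chosen with earlier results of these data known. Deviations of same-numbered arrays correlated at 0.18, 0.188 and 0.101, and other numberings gave -0.182 to 0.0225. By the data alone, the numbers may pair the arrays. The main fit did not use such a pairing, so its p values treat the arrays as unpaired. A fit with the replicate number as a block was run as an alternative.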

Additional observations from a re-analysis of the deposited data

How the results depend on the processing

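En2, Gbx2 and the 3 Pax3 probe sets passed in the same direction under every alternative that tested them (14 or 15 each), and En1 in all 12 that tested it. En1 fell below the filter at the 60th percentile, under a floor at the 10th percentile and with no floor, and Pax3 probe set 1430335_a_at under the first of these. Pax6 and Pax8 did not pass under any alternative in the probe sets of the main fit. The called member probe sets numbered 6 without each array in turn and with the replicate block. With no filter, 1 member probe set (of Pax6) was higher in neocortical astrocytes, against 0. The replicate block changed no call of a member, and of 48 other named genes only that of Dach1. Over all probe sets, 1319 were higher in cerebellar and 1545 in neocortical astrocytes. The pair was 819 and 2105 with array medians made equal, 577 and 704 with no filter and 676 and 914 with no variance trend. Without each array in turn the counts ranged from 548 to 1233 and from 665 to 1542. The first fell to 819 without cerebellar array 3 and to 548 to 601 without a neocortical array, and the second to 665 to 784 without a neocortical array. Making medians equal moved the median log2 difference of all tested probe sets from 0.0090 to -0.096. At the 60th percentile filter 1 isthmic signal gene was higher, and 0 midbrain and hindbrain factors and 0 Pax partners were lower. With no variance trend 1 isthmic signal gene was lower, and with no filter 1 Pax partner was higher. These list alternatives were chosen after seeing the data. Without each array in turn 1 to 2 isthmic signal genes were lower. Of the 48 other named genes, 17 did not pass with no filter and 9 with no variance trend, and none changed direction. Those that did not pass with no filter included Egr2, Tle2, Msx2, Slc1a3, Glul, Mbp, Car8 and Slf2. Without cerebellar array 1, 2 or 3 the genes that did not pass numbered 2, 7 and 7. Without neocortical array 1, 2 or 3 they numbered 9, 9 and 10. Why calls changed was not tested. Dim signal limits Pax5, Pax7, Pax8 and the neocortical side of En1, En2 and Pax3.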
